A study of Mus musculus with 9 samples.

Results

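The mitochondrial genome of the mouse contributed 37 of the 51826 genes counted in this study, which were all the genes whose symbol begins with "mt-". They are 13 mRNAs, 2 ribosomal RNAs (rRNAs) and 22 transfer RNAs (tRNAs), with 28 genes read from the plus strand and 9 from the minus strand. Polyadenylated RNA was sequenced in 9 cultures of RAW 264.7, a macrophage-like line derived from a mouse tumour, with 3 libraries for each of 3 groups. Cells of the first group received calycosin, an isoflavone of Astragalus root, at 100 µg/mL during 24 h and were then exposed to lipopolysaccharide (LPS), a bacterial product sensed by TLR4, at 300 ng/mL for 6 h. Cells of the second group received LPS alone at the same dose and time, and cells of the third received the solvent (vehicle). Cells given calycosin without LPS are not among the groups, and all libraries come from 1 immortal line, so the spread between replicates is the spread between cultures of that line.

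Total gene counts per library ran from 27784737 to 38524105. Of 8 macrophage markers 7 had enough counts to be tested, and their summed level was between 3290 and 3460 CPM in calycosin plus LPS cells, between 3190 and 3260 CPM in LPS cells and between 5120 and 6380 CPM in vehicle cells, whereas Mertk had at most 4 counts in a library. Of 10 markers of other cell types 9 stayed under 1 CPM in each library, and the epithelial markers Epcam and Krt18 had 0 counts in all 9 libraries. The exception was the endothelial marker Cdh5, at 0.175 to 4.29 CPM. Summed, these markers had 3.82 to 5.58 CPM in LPS cells. They had 1.01 to 1.15 CPM in calycosin plus LPS cells and 1.02 to 1.22 CPM in vehicle cells. CPM are counts scaled to a common library size, and for single genes each library size was first corrected with a TMM factor (trimmed mean of M values), which limits the weight of very abundant genes.

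Mitochondrial DNA is transcribed from both strands into long precursors. The tRNAs lie between most of the rRNAs and mRNAs, and their excision by RNase P and the tRNase Z enzyme ELAC2 releases the mature RNAs. The mRNAs encode subunits of respiratory complexes I, III and IV and of ATP synthase, and the rRNAs form the core of the mitochondrial ribosome. Most mitochondrial mRNAs of mammals carry short poly(A) tails added by the polymerase MTPAP, so poly-T capture recovers them along with nuclear mRNA. In macrophages, LPS is known to shift energy production from respiration to glycolysis.

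Reads of at least 6 of the mRNAs have a second place to map to. A stretch of mitochondrial sequence was copied into chromosome 1 and pieces of it are annotated there as genes. Sequence between the annotated pieces was not compared. mt-Atp8 and mt-Nd4l, whose neighbouring mRNA genes on both sides have a copy, may therefore have one too. The copies lie on the minus strand between positions 24611535 and 24616197 of GRCm38 (positions and transcript sequences from GENCODE M21). Gm10925 holds the first 678 bases of mt-Atp6, Gm28437 the first 783 of mt-Co3, Gm28661 the first 681 of mt-Co2 and Gm28439 the first 876 of mt-Nd4, each with every base identical. The openings of mt-Atp6 (chrM:7927-7986, plus strand) and Gm10925 (chr1:24614592-24614651, minus strand) and of mt-Co3 (chrM:8607-8666, plus strand) and Gm28437 (chr1:24613912-24613971, minus strand) are printed because no read from within them can be assigned by its sequence.
mt-Atp6: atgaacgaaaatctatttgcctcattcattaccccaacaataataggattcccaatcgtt
Gm10925: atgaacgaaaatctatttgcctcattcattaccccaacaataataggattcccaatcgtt
mt-Co3: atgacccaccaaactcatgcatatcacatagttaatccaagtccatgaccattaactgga
Gm28437: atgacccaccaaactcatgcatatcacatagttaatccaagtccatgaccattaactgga

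The other copies differ from their mitochondrial gene near their start. Gm29216 matches 486 of 492 bases of mt-Co1, from position 1054 of the gene to its end at 1545. Counted from 1 at the start of mt-Co1, the mitochondrial base first, the differences are T1056A, C1057T, A1059G, A1060G, C1062A and A1066T. Gm28438 matches 344 of 345 bases of mt-Nd3 and differs by T3C. The stretches that hold these differences are printed with the differing bases in capitals, for mt-Co1 (chrM:6381-6423, plus strand), Gm29216 (chr1:24616155-24616197, minus strand), mt-Nd3 (chrM:9459-9498, plus strand) and Gm28438 (chr1:24613080-24613119, minus strand).
mt-Co1: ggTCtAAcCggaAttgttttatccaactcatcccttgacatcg
Gm29216: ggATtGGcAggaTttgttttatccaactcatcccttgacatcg
mt-Nd3: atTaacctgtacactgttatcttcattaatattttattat
Gm28438: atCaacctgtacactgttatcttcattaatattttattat

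Neighbouring mRNA genes also overlap within the mitochondrial genome. The last 43 bases of mt-Atp8 are the first 43 of mt-Atp6, mt-Nd4l and mt-Nd4 share 7 bases, and the last 14 bases of mt-Nd5 are covered on the other strand by mt-Nd6. The ends of mt-Atp8 (chrM:7890-7969), mt-Nd4l (chrM:10134-10173) and mt-Nd5 (chrM:13526-13565), all on the plus strand, are printed with the shared bases in capitals. No source used here names the program that counted reads, its use of strand or its treatment of reads with several matches, so values of these pairs, and of genes with a copy, are uncertain to the extent that reads were split between them.
mt-Atp8: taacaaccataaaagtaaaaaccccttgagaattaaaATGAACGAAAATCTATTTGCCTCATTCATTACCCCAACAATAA
mt-Nd4l: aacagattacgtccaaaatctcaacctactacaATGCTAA
mt-Nd5: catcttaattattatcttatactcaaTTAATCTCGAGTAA

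The tRNA genes in which groups differed are printed with the anticodon in capitals. mt-Tf (phenylalanine, chrM:1-68, plus strand) stands immediately before the 12S rRNA gene. mt-Ta (alanine, chrM:5018-5086), mt-Tn (asparagine, chrM:5089-5159), mt-Tc (cysteine, chrM:5192-5257) and mt-Ty (tyrosine, chrM:5260-5326) lie side by side on the minus strand between mt-Nd2 and mt-Co1.
mt-Tf: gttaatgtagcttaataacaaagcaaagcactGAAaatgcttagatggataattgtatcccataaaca
mt-Ta: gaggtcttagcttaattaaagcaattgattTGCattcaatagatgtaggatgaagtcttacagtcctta
mt-Tn: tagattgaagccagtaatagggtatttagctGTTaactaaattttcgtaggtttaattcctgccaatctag
mt-Tc: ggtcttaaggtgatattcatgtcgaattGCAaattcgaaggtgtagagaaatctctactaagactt
mt-Ty: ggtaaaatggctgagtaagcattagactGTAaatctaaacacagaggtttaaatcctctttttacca

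The share of counts from the mitochondrial genome varied more within the calycosin plus LPS and vehicle groups than between the means of the 3 groups. Calycosin plus LPS replicates 1, 2 and 3 had shares of 17.25%, 7.449% and 19.4%, LPS replicates had 14.15%, 14.68% and 13.01%, and vehicle replicates had 3.788%, 3.68% and 21.94%. Vehicle replicate 3 had the highest share of all 9 libraries and the other vehicle replicates the lowest, so the vehicle values lay on both sides of the LPS values, and calycosin plus LPS replicate 2 lay below its group. The means were 14.70% ± 6.371 in calycosin plus LPS cells, 13.95% ± 0.8534 in LPS cells and 9.803% ± 10.51 in vehicle cells (SD, n = 3 each). No test was made of this sum over chosen genes. The 95% Wilson interval of a share was at most 0.029 percentage points wide, which covers counting error only. A share is a proportion, so more mitochondrial RNA and less nuclear RNA per cell cannot be told apart.

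Adding the 6 copies on chromosome 1 raised each share and kept the pattern, with 20.88%, 9.195% and 23.64% in calycosin plus LPS cells, 17.49%, 18.07% and 15.95% in LPS cells, and 4.875%, 4.728% and 26.71% in vehicle cells. On the scale of deposited TPM, which corrects for length, the share was 30.97%, 14.25% and 34.26% with calycosin plus LPS, 26.94%, 27.4% and 23.49% with LPS, and 7.393%, 7.169% and 38.09% with vehicle. The same libraries stood apart on all these scales. The summed share of 98 cytosolic ribosomal protein genes was 1.58%, 2.16% and 1.52% in calycosin plus LPS cells, 1.53%, 1.48% and 1.8% in LPS cells, and 3.68%, 3.71% and 1.85% in vehicle cells. Vehicle replicate 3 was thus lowest, and calycosin plus LPS replicate 2 highest, of its group in this share, and the part of library composition in the results below was not tested beyond leaving these libraries out.

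**Figure D1:**
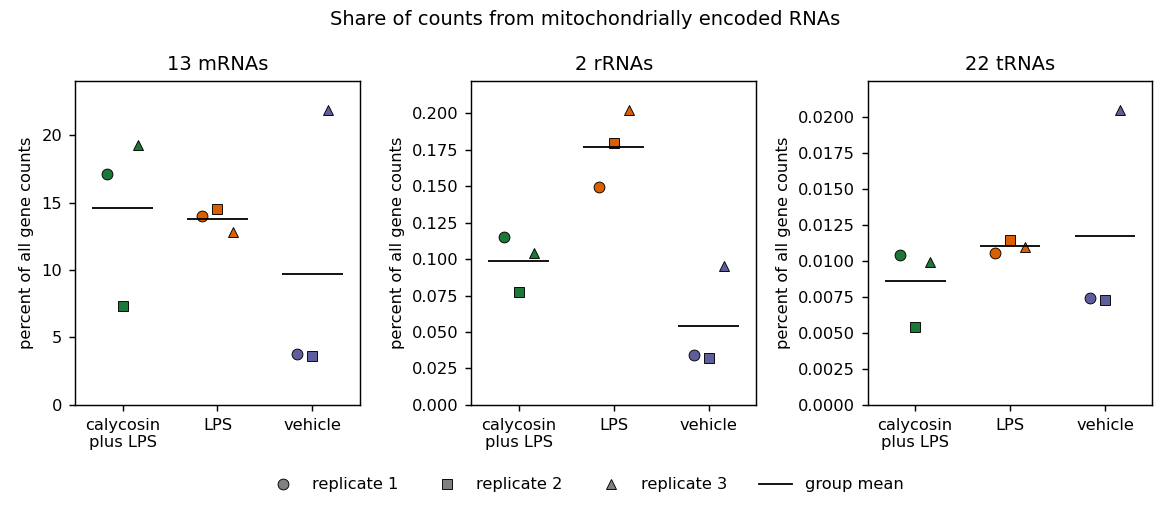
Percent of all gene counts from the 13 mRNAs, the 2 rRNAs and the 22 tRNAs of the mitochondrial genome (vertical axes, each with its own scale from 0) in the 9 libraries, with marker shapes for replicates and a line for the group mean. Vehicle replicate 3 stands apart from its group in all panels, whereas the rRNA share separates LPS cells (0.1495% to 0.202%) from the other libraries.

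The mRNAs made up 98.36% to 99.47% of mitochondrial counts in every library, and the rRNAs and tRNAs were small remainders, as measured after poly-T capture. The rRNAs took 0.1152%, 0.07729% and 0.104% of all counts in calycosin plus LPS cells, 0.1495%, 0.1796% and 0.202% in LPS cells, and 0.03455%, 0.03197% and 0.09543% in vehicle cells. Here the LPS libraries were above all the other libraries, including the vehicle library with the highest total mitochondrial share. The tRNAs took between 0.00542% and 0.0104% in calycosin plus LPS cells, between 0.0106% and 0.0115% in LPS cells and between 0.00726% and 0.0204% in vehicle cells.

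Within each library the mRNAs differed widely in level per length. In LPS cells mt-Atp8, a small subunit of ATP synthase, had 56750, 52150 and 37410 TPM, mt-Co1, the catalytic subunit of complex IV, 37320, 39400 and 42290 TPM, and mt-Cytb, the cytochrome b of complex III, 30540, 33360 and 27540 TPM. The ranges of mt-Atp8 and mt-Co1 overlapped, and mt-Cytb lay below both. At the other end mt-Co3 had 5570, 5778 and 6267 TPM and mt-Nd3, a core subunit of complex I, 354.6, 361.4 and 334.0 TPM. These TPM hold only reads assigned to the mitochondrial gene, so the ranking of genes with a nuclear copy is uncertain. The same holds for mt-Atp8 if the sequence between the annotated copies includes it. mt-Co2, at 26180, 29190 and 27730 TPM in LPS cells, had a copy with 0.992 to 0.995 times its count. The copies of mt-Co3 and mt-Nd3 also took nearly the same count as their gene. Between mt-Atp8 and mt-Co1 the order was not the same in all libraries. mt-Co1 exceeded mt-Atp8 in calycosin plus LPS replicate 2 (37790 against 19110 TPM) and in vehicle replicates 1 and 2 (18430 against 9652 TPM and 18130 against 9779 TPM), and also in LPS replicate 3, whereas mt-Atp8 exceeded mt-Co1 in vehicle replicate 3 (75550 against 43080 TPM).

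Composition of the mRNA pool followed the same division of libraries. mt-Co1 supplied 29.88%, 42.05% and 26.67% of mitochondrial mRNA counts in calycosin plus LPS cells, 25.23%, 25.58% and 30.48% in LPS cells, and 40.04%, 40.55% and 20.40% in vehicle cells. mt-Cytb supplied 17.18%, 11.53% and 19.16%, then 15.29%, 16.03% and 14.69%, and then 12.13%, 12.40% and 18.13% in the same order of groups and replicates. Calycosin plus LPS replicate 2 thus lay near vehicle replicates 1 and 2 in these shares, although the treatments differ. Exceptions were mt-Co3, mt-Nd3 and mt-Atp6. mt-Co3 supplied 3.635% in calycosin plus LPS replicate 2 against 7.369% and 7.543% in vehicle replicates 1 and 2. mt-Nd3 supplied 0.07192% against 0.2424% and 0.2313% in the same libraries. The share of mt-Atp6 was 6.235% in calycosin plus LPS replicate 2 against 1.319% and 1.279% in vehicle replicates 1 and 2. The gap of mt-Atp6 depends on how reads were assigned between it and its nuclear copy Gm10925, described below. With the counts of Gm10925 added, those of mt-Atp6 relative to all mitochondrial mRNA counts were 13.06% in calycosin plus LPS replicate 2 against 8.34% and 8.191% in vehicle replicates 1 and 2.

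The extent to which a library stood apart depended on the transcript. In vehicle replicate 3 the CPM was 1.82 to 40.1 times the mean of the other vehicle replicates over the 13 mRNAs (median 11.8), 3.13 and 4.41 times for mt-Rnr1 and mt-Rnr2, and 0.383 to 12.7 times over the 17 tRNAs that passed the filter on low counts (median 4.52). Among mRNAs mt-Co3 (1.82), mt-Nd3 (2.49) and mt-Co1 (4.04) differed least, and mt-Atp6 (40.1) and mt-Nd6, the only mRNA on the minus strand (22.2), differed most. The value of mt-Atp6 rests on how its reads were assigned in vehicle replicates 1 and 2. With the counts of its nuclear copy Gm10925 added it was 13.6, below mt-Nd6. In calycosin plus LPS replicate 2 the CPM was 0.165 to 0.791 times the mean of the other replicates over the mRNAs (median 0.255), with mt-Nd6 lowest (0.165) and mt-Co3 highest (0.791). The minus-strand tRNA cluster between mt-Nd2 and mt-Co1 did not share the pattern of the mRNAs. The plus-strand mt-Tw beside it did, with ratios of 2.87 in vehicle replicate 3 and 0.587 in calycosin plus LPS replicate 2. mt-Ta, mt-Tn, mt-Tc and mt-Ty had ratios of 1.60, 0.886, 0.383 and 0.771 in vehicle replicate 3 and of 0.720, 0.914, 1.47 and 1.21 in calycosin plus LPS replicate 2.

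**Figure D2:**
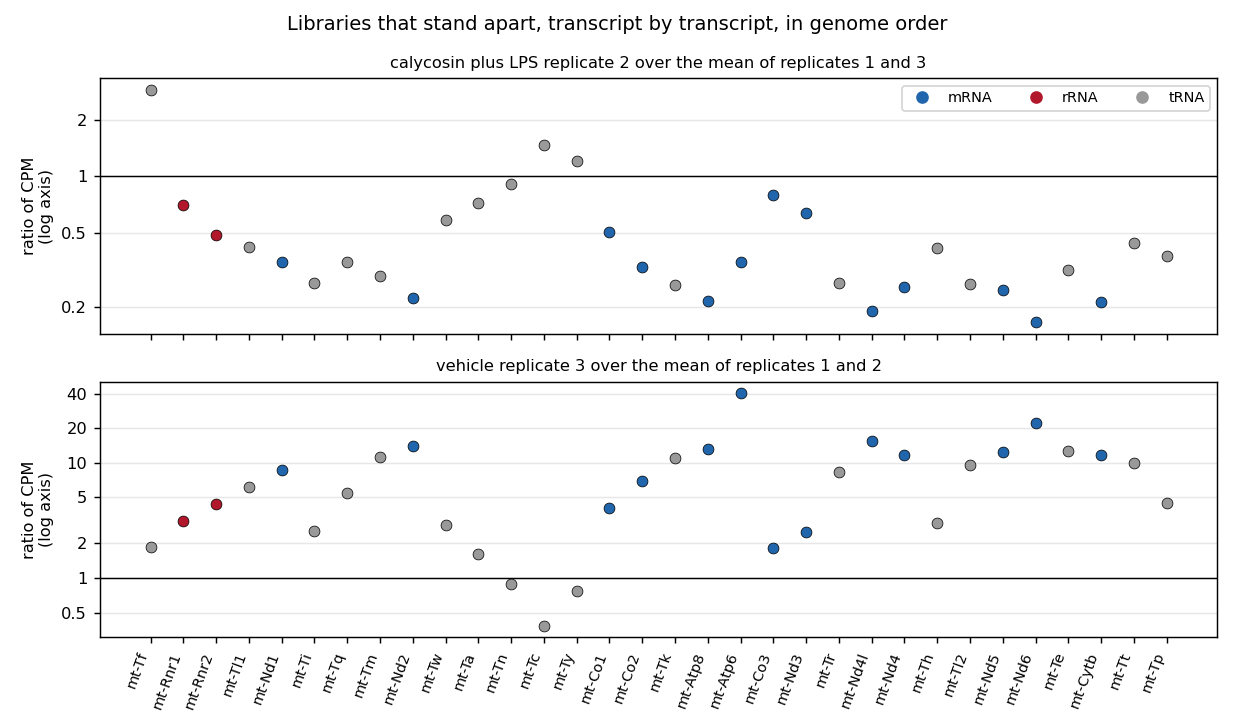
Ratio of the CPM in calycosin plus LPS replicate 2 (top) and vehicle replicate 3 (bottom) to the mean CPM of the other replicates of the group, on log axes, for the 32 mitochondrial genes that passed the filter on low counts, in genome order along the horizontal axis and coloured by class of RNA. The mRNAs lie between 0.165 and 0.791 in the top panel and between 1.82 and 40.1 in the bottom panel, and the run from mt-Ta to mt-Ty lies between 0.720 and 1.47 in the top panel and between 0.383 and 1.60 in the bottom panel.

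LPS cells were set against vehicle cells to measure how mitochondrial transcripts responded to LPS over 6 h. Both rRNAs and mt-Tf were higher with LPS and no mitochondrial gene was lower, in the quasi-likelihood F test of edgeR with a threshold of 0.05 on the Benjamini-Hochberg adjusted p. These were 3 of the 32 members that passed the filter on low counts. Over all genes tested 56.3% were called in this comparison, with 27.3% higher and 28.9% lower. None of the 13 mRNAs was called, and none had an unadjusted p below 0.05 in edgeR, while DESeq2 called 1 higher (mt-Co1) and limma on log2(TPM + 1) called 1 higher (mt-Atp6) and 1 lower (mt-Nd3). Over all members DESeq2 called 5 higher and 1 lower, and limma 4 higher and 4 lower. The median log2 fold change was 2.33 over the rRNAs, 0.93 over the mRNAs and 0.29 over the 17 tRNAs, against -0.07 over all genes tested.

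mt-Rnr1 (chromosome M, 70 to 1024, ENSMUSG00000064337) encodes the 12S rRNA of the small ribosomal subunit. It had 564.0, 382.1 and 520.4 CPM in calycosin plus LPS cells, 912.2, 1141 and 1366 CPM in LPS cells, and 104.4, 94.71 and 312.0 CPM in vehicle cells. The 3 groups did not overlap, with LPS cells highest and vehicle cells lowest, and vehicle replicate 3 was the highest of its group. LPS cells were 6.69-fold above vehicle cells, with a log2 fold change of 2.74 (SE 0.44, edgeR adjusted p = 0.000519). mt-Rnr2 (chromosome M, 1094 to 2675, ENSMUSG00000064339), the 16S rRNA of the large subunit, had 978.7, 1145 and 1119 CPM in LPS cells, against 139.4, 130.6 and 596.0 CPM in vehicle cells. LPS and vehicle cells did not overlap in it, and the log2 fold change was 1.91 (SE 0.55, edgeR adjusted p = 0.0151). Without vehicle replicate 3 the log2 fold changes of mt-Rnr1 and mt-Rnr2 were 3.46 and 2.95.

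mt-Tf, the tRNA gene directly before mt-Rnr1, had 10, 15 and 11 counts in LPS libraries, against 4, 4 and 5 in vehicle libraries, so its call rests on few reads. Its log2 fold change was 2.29 (SE 0.60, edgeR adjusted p = 0.00896), and the call was lost with limma on log2(TPM + 0.1) (adjusted p = 0.138). Whether reads on a tRNA gene came from the mature tRNA or from a longer precursor was not tested.

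Results for the mRNAs depended on vehicle replicate 3. By complex, the 7 mRNAs of complex I had log2 fold changes with LPS of 1.01 for mt-Nd1, 0.65 for mt-Nd2, 0.00 for mt-Nd3, 0.88 for mt-Nd4l, 0.95 for mt-Nd4, 0.93 for mt-Nd5 and 0.76 for mt-Nd6. mt-Cytb of complex III had 0.86, mt-Co1, mt-Co2 and mt-Co3 of complex IV 1.14, 1.20 and 0.50, and mt-Atp8 and mt-Atp6 of ATP synthase 1.02 and 1.33. Their lowest adjusted p was 0.0983, for mt-Co1, which had 44640, 47160 and 47970 CPM in LPS cells, against 10580, 10400 and 42350 CPM in vehicle cells. This was the only mRNA in which all LPS libraries lay above all vehicle libraries in CPM. In TPM mt-Co1 had 43080 in vehicle replicate 3, above the LPS libraries at 37320, 39400 and 42290. The share of all genes without overlap is not given here.

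Left without vehicle replicate 3, the comparison called 26 of 32 members, with 25 higher, all 13 mRNAs among them, and mt-Tc lower. Vehicle replicate 3 was singled out by its mitochondrial values, so this refit shows dependence on that library and is no separate test. The share called over all genes is given for the full fit only. The mRNA log2 fold changes in this refit ran from 0.53 for mt-Nd3 to 5.09 for mt-Atp6 and 3.71 for mt-Nd6, with 2.10 for mt-Co1 (edgeR adjusted p = 0.000253) and 3.00 for mt-Cytb. The rises of mt-Nd3 and mt-Co3 depended on the scaling. In TPM mt-Nd3 had 354.6, 361.4 and 334.0 in LPS cells, against 496.6 and 460.2 in vehicle replicates 1 and 2. mt-Co3 had 5570, 5778 and 6267 TPM, against 6690 and 6652, so both were lower with LPS on that scale. The value of mt-Atp6 depends on how reads were assigned between it and Gm10925. With the copy's counts added, the log2 ratio of the mean CPM of the LPS libraries to that of these vehicle libraries was 3.56 for mt-Atp6. With any other single library left out the count stayed at 3 higher and 0 lower.

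**Figure D3:**
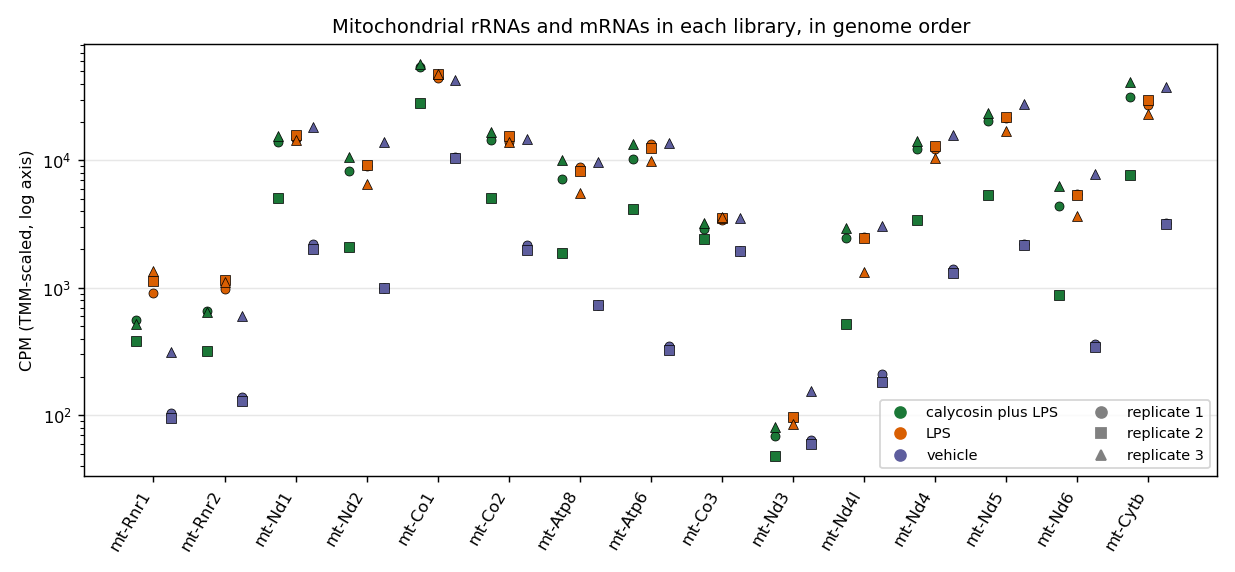
Level of both rRNAs and the 13 mRNAs in each of the 9 libraries, in TMM-scaled CPM on a log axis, in genome order and grouped within each gene as calycosin plus LPS, LPS and vehicle, with marker shapes for replicates. The LPS rRNA values lie above those of both other groups, whereas for most mRNAs vehicle replicate 3 lies with or above the LPS libraries and vehicle replicates 1 and 2 lie below.

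Calycosin pretreatment was tested by setting calycosin plus LPS cells against cells that received LPS alone. Of 32 members 4 were lower and none was higher (6 had an unadjusted p below 0.05, and DESeq2 called 0 higher and 5 lower), and all 4 were tRNA genes. Over all genes tested 29.1% were called, 16.1% higher and 12.9% lower. The median log2 fold change was -0.86 over the tRNAs, -1.11 over the rRNAs and -0.26 over the mRNAs, against 0.02 over all genes tested.

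Of the called genes mt-Ta, mt-Tn and mt-Ty belong to the minus-strand cluster between mt-Nd2 and mt-Co1. mt-Tn had 3.977, 4.201 and 5.214 CPM in calycosin plus LPS cells, 9.88, 11.85 and 10.14 CPM in LPS cells, and 11.73, 11.88 and 10.46 CPM in vehicle cells. In CPM the calycosin plus LPS libraries were below all the others, LPS and vehicle cells overlapped, and vehicle replicate 3 did not stand apart. In TPM mt-Tn had 182.1, 217.9 and 197.1 with LPS, below 449.9, 456.5 and 234.2 with vehicle. Vehicle replicate 3 thus stood apart on that scale. The calycosin plus LPS libraries were lowest there too, at 87.33, 124.6 and 103.8 TPM. The log2 fold change of mt-Tn was -1.25 (SE 0.16, edgeR adjusted p = 0.000518). mt-Ta had 3.288, 2.816 and 4.534 CPM with calycosin plus LPS, 8.377, 9.596 and 7.935 CPM with LPS, and 5.703, 5.797 and 9.215 CPM with vehicle, which is 2.44-fold lower than LPS (SE 0.25 on the log2 scale, edgeR adjusted p = 0.00442). mt-Ty had 1.472, 1.807 and 1.522 CPM with calycosin plus LPS, against 2.777, 2.871 and 3.407 CPM with LPS, which is 1.88-fold lower (SE 0.21 on the log2 scale, edgeR adjusted p = 0.0103). In both, no calycosin plus LPS library reached the lowest LPS library in CPM. In TPM mt-Ty overlapped, at 56.36 in calycosin plus LPS replicate 2 against 53.49 in LPS replicate 1.

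These genes had 47 to 179 counts in calycosin plus LPS libraries and 61 to 289 in LPS libraries. The calls of mt-Tn and mt-Ty were lost with limma on TPM (mt-Tn adjusted p = 0.0508 to 0.114, mt-Ty 0.275 to 0.467), while mt-Ta kept its call there. The remaining member of the cluster, mt-Tc, had 1.754, 2.558 and 1.716 CPM with calycosin plus LPS, 2.459, 3.322 and 4.362 CPM with LPS, and 8.012, 8.017 and 3.072 CPM with vehicle. Its calycosin plus LPS and LPS values overlapped (log2 fold change -0.74, edgeR adjusted p = 0.178). mt-Tf was also called, with 0, 4 and 2 counts in calycosin plus LPS libraries, against 10, 15 and 11 in LPS libraries (log2 fold change -3.11, SE 0.67, edgeR adjusted p = 0.0075). At these counts its size is imprecise.

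**Figure D4:**
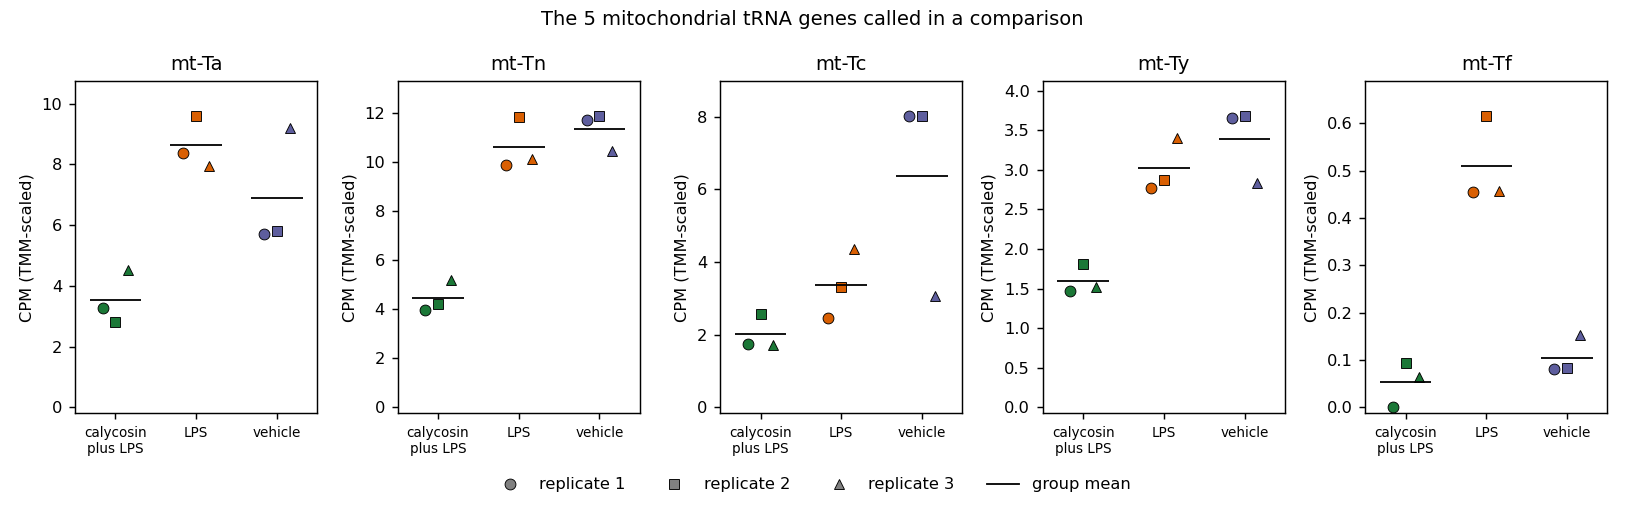
TMM-scaled CPM of the 5 mitochondrial tRNA genes called in a comparison, by group, with marker shapes for replicates and a line for the group mean. In mt-Ta, mt-Tn and mt-Ty the calycosin plus LPS libraries lie below all the others, and mt-Tf stays under 1 CPM throughout.

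Neither rRNA passed the threshold between calycosin plus LPS and LPS alone, although the levels of both lay lower in the pretreated cells. mt-Rnr1 had a log2 fold change of -1.22 (SE 0.42, edgeR adjusted p = 0.053) and mt-Rnr2, at 660.0, 316.6 and 640.7 CPM with calycosin plus LPS, one of -1.0 (SE 0.54, edgeR adjusted p = 0.195). For both genes all 3 calycosin plus LPS libraries lay below all 3 LPS libraries. mt-Rnr1 passed the threshold without vehicle replicate 1, 2 or 3 (adjusted p = 0.0435, 0.0338 and 0.000923 in edgeR), although these libraries are in neither group and enter through the shared estimate of the spread. It also passed with DESeq2 (adjusted p = 0.00801), with edgeR under the RLE size factors (adjusted p = 0.0464) and when edgeR was fitted to the libraries of these groups alone (adjusted p = 0.00189), where mt-Rnr2 passed too (adjusted p = 0.0154), as it did without vehicle replicate 3 (adjusted p = 0.0108). In most alternative settings neither passed. mt-Rnr1 stayed uncalled in 12 and passed in 8, and mt-Rnr2 stayed uncalled in 17 and passed in 3. Over these edgeR, DESeq2 and limma fits the largest adjusted p was 0.155 for mt-Rnr1 and 0.423 for mt-Rnr2.

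None of the mRNAs was called between calycosin plus LPS and LPS in edgeR, DESeq2 or limma (0 with an unadjusted p below 0.05 in edgeR), and their log2 fold changes ran from -0.49 for mt-Nd3 to 0.01 for mt-Cytb. mt-Co1 had 54360, 28000 and 57410 CPM with calycosin plus LPS, on both sides of the LPS values given above, and replicate 2 was its lowest library. mt-Nd3 had 68.71, 47.9 and 80.87 CPM with calycosin plus LPS, against 95.38, 97.23 and 85.17 CPM with LPS, and mt-Co3 2893, 2421 and 3226 CPM, against 3380, 3507 and 3605 CPM. In both of these the groups did not overlap in CPM, with adjusted p = 0.310 and 0.392 in edgeR. In TPM mt-Co3 did overlap, at 5721, 6443 and 5745 with calycosin plus LPS, against 5570, 5778 and 6267 with LPS. Left without calycosin plus LPS replicate 2 and vehicle replicate 3 together, the fit called 9 members, with 2 higher (mt-Cytb and mt-Co1) and 7 lower, and without vehicle replicate 3 alone it called 8, all lower. These libraries were singled out by their mitochondrial values, and the share called over all genes is given for the full fit only.

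The comparison of calycosin plus LPS with vehicle set the pretreated, LPS-exposed cells against resting cells. Of 32 members 1 was higher, mt-Rnr1, and 4 were lower, mt-Ta, mt-Tn, mt-Tc and mt-Ty, the whole minus-strand cluster between mt-Nd2 and mt-Co1. Over all genes tested 49.0% were called, 25.4% higher and 23.6% lower. It shares libraries with both other comparisons and is therefore not independent of them. mt-Rnr1 had a log2 fold change of 1.52 (SE 0.42, edgeR adjusted p = 0.0141), and mt-Rnr2 one of 0.90 (edgeR adjusted p = 0.193), with overlapping groups. The log2 fold changes of mt-Tc, mt-Tn, mt-Ty and mt-Ta were -1.66, -1.35, -1.08 and -0.96. In each, all calycosin plus LPS libraries lay below all vehicle libraries in CPM. In TPM mt-Tc overlapped, at 81.76 in calycosin plus LPS replicate 2 against 73.52 in vehicle replicate 3. None of the mRNAs was called in edgeR (0 at an unadjusted p below 0.05, log2 fold changes from -0.49 for mt-Nd3 to 1.14 for mt-Co1), and DESeq2 called 1 higher (mt-Co1) and limma on log2(TPM + 1) 1 lower (mt-Nd3). Without vehicle replicate 3, singled out by its mitochondrial values, the count was 22, with 18 higher and 4 lower. The share called over all genes in that refit is not given here.

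The remaining tRNA genes were not called in any comparison. mt-Tl1, the leucine tRNA gene after mt-Rnr2, mt-Te and mt-Tp had the most counts among them. mt-Te, on the minus strand beside mt-Nd6, had 22.05, 8.167 and 29.73 CPM in calycosin plus LPS cells, 41.16, 41.09 and 29.00 CPM in LPS cells, and 5.843, 5.263 and 70.35 CPM in vehicle cells. It spread like the mRNAs, with vehicle replicate 3 the highest of all libraries. mt-Tl1 ranged from 9.683 to 62.56 CPM and mt-Tp from 3.474 to 20.18 CPM over the 9 libraries. mt-Ti, mt-Tq, mt-Tm, mt-Tw, mt-Tk, mt-Tr, mt-Th, mt-Tl2 and mt-Tt stayed under 7 CPM in each library, and mt-Tv, mt-Ts1, mt-Td, mt-Tg and mt-Ts2, with at most 8 counts in a library, did not pass the filter and were not tested.

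Ratios between transcripts of the same library do not contain the mitochondrial share as a common factor. They can still vary with it, because the extent to which a library stood apart depended on the transcript. The count ratio of mt-Rnr2 to mt-Co1 was 0.0121, 0.0113 and 0.0112 in calycosin plus LPS cells, 0.0219, 0.0243 and 0.0233 in LPS cells, and 0.0132, 0.0126 and 0.0141 in vehicle cells. The libraries that stand apart in mitochondrial share did not stand apart in this ratio, and the LPS libraries lay above all the others without overlap. This depended on mt-Co1 as the denominator. Relative to all mitochondrial mRNA counts, mt-Rnr2 was 3.628, 4.755 and 2.976 per mille in calycosin plus LPS cells. It was 5.531, 6.211 and 7.111 per mille in LPS cells, and 5.275, 5.092 and 2.87 per mille in vehicle cells. There the gap was narrow, and vehicle replicate 3 lay below its group. Between calycosin plus LPS and LPS the mean log2 ratio differed by -1.01, with an exact permutation p of 0.1 (two-sided), the smallest that 20 assignments of 3 against 3 libraries allow, and an adjusted p of 0.6 over 6 ratios. The planned comparison of all LPS-exposed libraries with vehicle joined both LPS groups and gave a difference of 0.30 (exact permutation p = 0.464). For LPS cells against vehicle cells alone the ratio was compared by its values only.

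The ratio of mt-Rnr2 to mt-Rnr1, both read from the same strand, was 1.17, 0.829 and 1.23 in calycosin plus LPS cells, 1.07, 1.0 and 0.82 in LPS cells, and 1.34, 1.38 and 1.91 in vehicle cells. All vehicle libraries lay above all LPS-exposed libraries. The mean log2 ratio of the 6 LPS-exposed libraries differed from that of the 3 vehicle libraries by -0.59 (exact permutation p = 0.0119, two-sided, the smallest that 84 assignments allow, and adjusted p = 0.0714 over 6 ratios). It does not pass the threshold after adjustment, although all 9 libraries show its direction. Pretreated cells and LPS cells overlapped in this ratio.

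**Figure D5:**
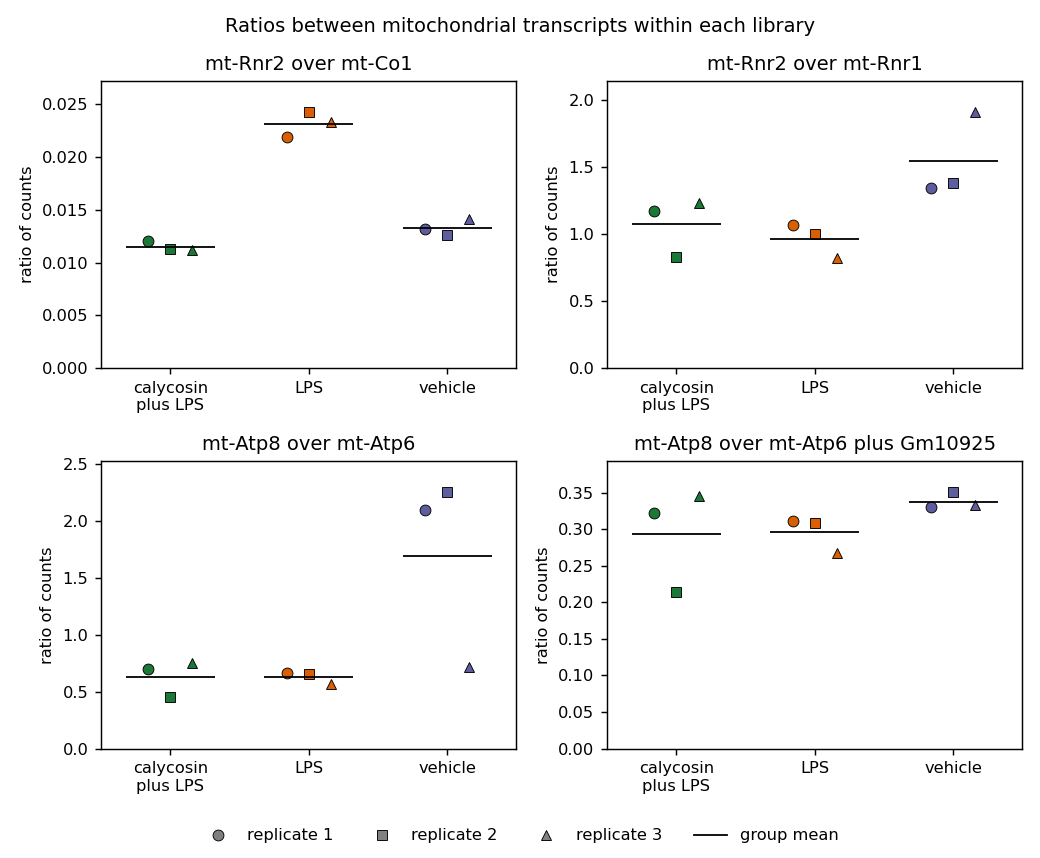
Count ratios within each library, by group, with marker shapes for replicates and a line for the group mean, on axes from 0. The mt-Rnr2 to mt-Co1 ratio is 0.0219 to 0.0243 in LPS libraries and at most 0.0141 elsewhere, and the high mt-Atp8 to mt-Atp6 ratios of vehicle replicates 1 and 2 disappear when counts of the nuclear copy Gm10925 are added to mt-Atp6.

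Ratios between the other mRNAs overlapped between all groups. The ratio of mt-Nd6, on the minus strand, to mt-Nd5, on the plus strand, was 0.216, 0.162 and 0.265 in calycosin plus LPS cells, 0.249, 0.241 and 0.216 in LPS cells, and 0.162, 0.158 and 0.283 in vehicle cells. Calycosin plus LPS replicate 2 had nearly the value of vehicle replicates 1 and 2, and vehicle replicate 3 the highest of all. The ratio of mt-Nd5 to mt-Co1 was 0.371, 0.192 and 0.412, then 0.485, 0.467 and 0.352, and then 0.21, 0.208 and 0.649 in the same order. That of mt-Cytb to mt-Nd1 was 2.25, 1.5 and 2.66, then 1.85, 1.86 and 1.6, and then 1.46, 1.58 and 2.08. Of these ratios none differed between groups by the exact permutation test, whose p ran from 0.405 to 0.571 for LPS-exposed libraries against vehicle and from 0.3 to 0.6 for calycosin plus LPS against LPS.

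The ratio of mt-Atp8 to mt-Atp6, which are translated from a shared mRNA, separated vehicle replicates 1 and 2 from the other libraries. It was 0.695, 0.448 and 0.746 in calycosin plus LPS cells, 0.661, 0.654 and 0.568 in LPS cells, and 2.09, 2.25 and 0.719 in vehicle cells. In counts of the nuclear copy Gm10925 over those of mt-Atp6 the same libraries stood apart, at 5.32 and 5.41, against 1.1 to 1.16 in the other 7 libraries. With the copy's counts added to mt-Atp6 the ratio became 0.323, 0.214 and 0.345 in calycosin plus LPS cells, 0.311, 0.308 and 0.268 in LPS cells, and 0.33, 0.351 and 0.333 in vehicle cells. The difference between LPS-exposed and vehicle libraries was -1.27 on the log2 scale before this addition (exact permutation p = 0.0238, adjusted p = 0.0714 over 6 ratios) and -0.21 after it (exact permutation p = 0.155).

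Over the printed openings mt-Atp6 and Gm10925 have the same letters, so counts of these genes record how reads were assigned between identical places. For mt-Co3, mt-Co2 and mt-Nd3 the copy took nearly the same count as its gene. The count of the copy over that of the gene was 1.0 for mt-Co3, 0.992 to 0.995 for mt-Co2 and 1.02 to 1.04 for mt-Nd3 in all 9 libraries. It was 0.348 to 0.607 for mt-Nd4, of which the copy covers 876 of 1378 bases, and 0.0455 to 0.114 for mt-Co1, of which it covers the last 492 of 1545. With the copies' counts added to their genes, the fits called 3, 4 and 5 members in the comparisons of LPS with vehicle, calycosin plus LPS with LPS and calycosin plus LPS with vehicle, the same counts as without.

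The nuclear genome encodes the proteins that replicate and transcribe mitochondrial DNA and process and degrade its RNA, and 41 such genes were listed and tested. LPS against vehicle gave 8 higher and 10 lower, calycosin plus LPS against LPS gave 4 higher and 1 lower, and calycosin plus LPS against vehicle gave 7 higher and 7 lower. All 3 counts are smaller shares of the list than the 56.3%, 29.1% and 49.0% called over all genes tested in the same comparisons. The split by direction depended on the method. With LPS against vehicle, limma on log2(TPM + 1) called 1 higher and 20 lower of 40 tested. Pnpt1, which encodes the 3′ to 5′ exoribonuclease of the mitochondrial RNA degradosome, had the largest rise. It had 262, 206 and 252 CPM in calycosin plus LPS cells, 423, 444 and 445 CPM in LPS cells, and 43.3, 44.3 and 71.0 CPM in vehicle cells. The groups did not overlap. Pnpt1 was 8.28-fold higher with LPS than with vehicle (log2 fold change 3.05, SE 0.21, edgeR adjusted p = 1.43e-06). It was 1.82-fold lower in pretreated cells than in LPS cells (edgeR adjusted p = 0.00858). That fall was lost with limma, which called 0 factors lower in each of its 3 settings. The 4 edgeR rises of that comparison were Mrm2, Mrm3, Twnk and Mgme1. Limma called 1 higher on log2(TPM + 1), 3 on log2(TPM + 0.1) and 0 without a filter.

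Genes for enzymes that modify the 16S rRNA were among the largest changes in both directions. Mrm1, Mrm2 and Mrm3 encode methyltransferases known in human cells to act on this rRNA, and Trmt61b one that methylates mitochondrial tRNAs and the 16S rRNA. Mrm2 had 4.17, 6.12 and 3.72 CPM in calycosin plus LPS cells, 1.32, 1.72 and 2.41 CPM in LPS cells, and 8.39, 7.40 and 4.38 CPM in vehicle cells. LPS cells were lowest without overlap, and Mrm2 was 3.70-fold lower with LPS than with vehicle and 2.57-fold higher with calycosin plus LPS than with LPS (edgeR adjusted p = 0.000858 and 0.0126). Mrm3 was 3.42-fold lower and 2.24-fold higher in the same comparisons (edgeR adjusted p = 0.000301 and 0.00918). Mrm1 was 5.32-fold lower with LPS than with vehicle, at 1.32, 0.984 and 2.20 CPM, against 9.5, 8.96 and 5.54 CPM, and its value with calycosin plus LPS, 2.94, 4.18 and 2.14 CPM, did not pass the threshold against LPS (edgeR adjusted p = 0.0576). Trmt61b was 3.25-fold higher in both LPS-exposed groups than in vehicle cells.

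Among genes of transcription and replication, Twnk, the mitochondrial DNA helicase, had 11.2, 12.1 and 12.7 CPM in calycosin plus LPS cells, 5.55, 9.10 and 5.53 CPM in LPS cells, and 27.3, 25.6 and 27.5 CPM in vehicle cells. Its groups did not overlap, with a 3.98-fold lower level in LPS than in vehicle cells and a 1.79-fold higher level in calycosin plus LPS than in LPS cells (edgeR adjusted p = 1.87e-05 and 0.0102). Mterf3, a negative regulator of mitochondrial transcription in the mouse, was 2.25-fold higher with LPS than with vehicle. Against vehicle, calycosin plus LPS cells were 1.98-fold higher in Tefm, the elongation factor, and 1.72-fold lower in Polrmt, the RNA polymerase (edgeR adjusted p = 0.000492 and 0.00767). Cells with LPS alone were 1.93-fold higher in Tefm and 2.1-fold lower in Polrmt than vehicle cells (edgeR adjusted p = 0.000438 and 0.0011). Neither gene was called between calycosin plus LPS and LPS (edgeR adjusted p = 0.881 and 0.295). The counts of called factors rose without vehicle replicate 3, to 22, 10 and 21 in the 3 comparisons. The shares called over all genes in these refits are not given here.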

How the data were processed

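Polyadenylated RNA of 9 RAW 264.7 cultures was captured on poly-T beads and sequenced, per the labels' protocols, and the submitters' processing notes name Trimmomatic 0.36, HISAT2 2.0, StringTie 1.3.3b and build mm10. The authors deposited raw counts of 51826 genes, and TPM values, scaled for length and depth, were deposited by the authors in a second table. Depth was 27784737 to 38524105 counts per library. Positions and sequences came from GENCODE M21 (GRCm38).

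Genes were filtered with filterByExpr (14458 left), normalised by TMM (factors 0.786 to 1.42) and fitted over all 9 libraries with a term per group in edgeR 4.0.16 (R 4.3.3). Pairs of groups were compared by the two-sided quasi-likelihood F test with Benjamini-Hochberg adjustment over all genes tested, at 0.05. Log2 count ratios used a pseudocount of 0.5 and exact permutation tests. The code was tested on simulated data. Alternatives were DESeq2 1.42.0, limma 3.58.1 on log2(TPM + 1), other scalings, no filter, a replicate block and libraries left out, and, chosen after seeing the data, counts of the nuclear copies added to their gene. The members, lists and ratios were chosen with earlier results of these data known. All mRNAs, rRNAs and tRNAs that passed the filter are named, and of the 41 nuclear-encoded factors the 3 largest called rises and falls of each comparison. No pair of libraries was a duplicate. Intervals cover counting error only.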

Additional observations from a re-analysis of the deposited data

How the results depend on the processing

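With LPS against vehicle, 3 mitochondrial genes were called, and 6 with DESeq2, 6 with a replicate block, 8, 7 and 6 with limma on log2(TPM + 1), on log2(TPM + 0.1) and without a filter, 27 without vehicle replicate 3 and calycosin plus LPS replicate 2 (the pair), and 3 to 26 with single libraries left out. With calycosin plus LPS against LPS (4), the count was 2 with limma without a filter, 9 without the pair and 4 to 8 with single libraries left out, and against vehicle (5) it was 25 and 5 to 22. Of the nuclear-encoded factors with LPS against vehicle, edgeR called 8 higher and 10 lower. The limma settings, in the same order, called 1 higher each and 20, 21 and 16 lower. Nuclear-encoded factors with calycosin plus LPS against LPS (5) numbered 9 with DESeq2 and with only those groups fitted, 1, 3 and 0 with limma and 4 to 10 with single libraries left out. Against vehicle (14) they numbered 6 with limma without a filter, 23 without the pair and 11 to 21 with single libraries left out. The share difference of calycosin plus LPS over vehicle, 4.90 percentage points, was 14.6 without the pair. The cause of these shifts was not tested.

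Directions turned mainly near 0 on the log2 scale. With LPS against vehicle mt-Nd3 was -0.03 with nuclear library sizes, -0.04 without a filter, -0.63 with limma and -0.27 to 0.53 with single libraries left out, and mt-Co3 -0.22 with limma. With calycosin plus LPS against LPS and without the pair, mt-Nd5 was 0.14, mt-Nd4 0.19, mt-Nd6 0.17, mt-Nd2 0.21, mt-Nd4l 0.38, mt-Co1 0.29, mt-Co2 0.13, mt-Atp8 0.21 and mt-Atp6 0.01, mt-Nd6 over mt-Nd5 0.02 and mt-Atp8 over mt-Atp6 0.20. mt-Cytb was -0.04 with DESeq2 and RLE factors and -0.49 with the block, mt-Co1 0.02 with nuclear library sizes, 0.04 without a filter, 0.01 with only those groups and 0.26 with limma, and mt-Co3 0.02 with limma. Against vehicle mt-Nd3 was 0.24 without the pair and mt-Co3 -0.19 with limma. With single libraries left out, calycosin plus LPS against LPS ran from -0.65 to 0.12 (mt-Nd5), -0.59 to 0.17 (mt-Nd4), -0.87 to 0.15 (mt-Nd6), -0.68 to 0.19 (mt-Nd2), -0.48 to 0.37 (mt-Nd4l), -0.44 to 0.45 (mt-Cytb), -0.17 to 0.27 (mt-Co1), -0.56 to 0.11 (mt-Co2), -0.74 to 0.19 (mt-Atp8), -0.33 to 0.02 (mt-Nd6 over mt-Nd5) and -0.16 to 0.20 (mt-Atp8 over mt-Atp6). Against vehicle it ran from -0.74 to 0.06 (mt-Nd3), -0.11 to 3.41 (mt-Nd6) and -0.09 to 2.78 (mt-Nd2), and mt-Nd5 over mt-Co1 in LPS-exposed against vehicle from -0.02 to 0.80.

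Replicate numbers did not pair the samples: deviations of same-numbered libraries correlated from -0.173 to 0.364, so the block result is given only here. mt-Rnr1 and mt-Rnr2 with LPS against vehicle kept direction and call in all 20 alternatives (adjusted p at most 0.00285 and 0.0464). Depth limits mt-Tf and the 5 untested tRNA genes.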

Other observations

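Other nuclear RNAs also differed between the libraries that stand apart and their groups. The nuclear-retained RNA Malat1 took 0.0712%, 0.0964% and 0.0716% of counts in calycosin plus LPS cells, 0.0252%, 0.0251% and 0.0284% in LPS cells, and 0.106%, 0.110% and 0.0721% in vehicle cells. Neat1, the RNA scaffold of paraspeckles, took 0.0287%, 0.0436% and 0.0294% in calycosin plus LPS cells, 0.0310%, 0.0321% and 0.0424% in LPS cells, and 0.0819%, 0.0829% and 0.0388% in vehicle cells. In both RNAs vehicle replicate 3 was the lowest and calycosin plus LPS replicate 2 the highest of its group.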
